A study of Mus musculus with 6 samples.

Results

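Planar cell polarity is the system by which cells of a sheet align with their neighbours along one axis of the tissue. Its core proteins sit at cell contacts. Celsr cadherins bridge neighbouring cells, Vangl proteins with Prickle collect on one side of a cell, and Frizzled receptors with Dishevelled collect on the other. In the wall of the lateral ventricle these proteins orient the motile cilia of ependymal cells, and in neurons they guide migration and axon growth. The 10 mouse genes described here are Celsr1, Celsr2, Celsr3, Vangl1, Vangl2, Prickle1, Prickle2, Scrib, Ptk7 and Ankrd6. They were taken by name as Celsr and planar polarity genes, with no threshold on a measured value, and are 10 of 18614 genes and 51 of 61481 RefSeq transcripts in the table.

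RNA was sequenced in bulk from the subventricular zone (SVZ), the germinal layer beside the lateral ventricle, in 3 libraries labelled as Zhx2 knockout (KO 1 to KO 3) and 3 wild-type libraries (WT 1 to WT 3). The design text gives the genotypes as Zhx2Δ/Δ and Zhx2+/+. All 3 titles name ZHX2, but the genotype tag says ZHX3 KO for KO 2 and ZHX4 KO for KO 3. The labels give no age, sex, number of animals per library or way in which the allele was made. The study's title names a CELSR1, Wnt and ROCK axis, and the comparison asks which of the polarity genes differ between the KO-labelled and WT libraries.

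Zhx2, the zinc finger and homeobox gene named by the labels, had 67.1, 57.8 and 56.3 CPM (counts scaled to library size) in KO 1 to KO 3, against 39.8, 40.5 and 38.2 CPM in WT 1 to WT 3. It was therefore higher, not lower, in every library labelled KO, with a log2 fold change of 0.61 ± 0.10 (SE) and an adjusted p of 0.163 in edgeR's quasi-likelihood test and of 0.00142 in DESeq2. The files do not say which part of the gene was deleted, so this gene level does not establish the genotype. All directions below are those of the libraries labelled KO. Libraries held between 17037152 and 17685906 counts, so the floor of 3 counts equals 0.17 to 0.176 CPM on these totals, for counting error only. The CPM of genes uses totals adjusted by TMM, edgeR's scaling between libraries, on which 3 counts in KO 1 equal 0.177 CPM. KO-labelled and WT libraries separated on principal component 1 (37.4% of variance), and WT 2 stood apart on component 2 (28.9%). WT 1 also stood apart on component 1, at -56.6, with WT 2 at -16.1, WT 3 at -8.77 and KO-labelled libraries between 22.5 and 34.8.

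Markers of the tissue were present: Dcx, a neuroblast gene, had 34.4, 30.4 and 47.0 CPM in KO 1 to KO 3, against 40.4, 39.97 and 47.2 CPM in WT 1 to WT 3. Markers of the choroid plexus and of ependymal cells, which lie beside the SVZ, did not overlap between the groups. The 12 choroid plexus markers summed to 47.7, 196 and 86.3 CPM in the KO-labelled libraries, against 17132, 12288 and 3627 CPM in WT, and all 12 were lower in DESeq2 (adjusted p under the threshold of 0.05) and none in edgeR. The 12 ependymal and motile cilium markers summed to 137, 127 and 98.6 CPM, against 292, 214 and 204 CPM in WT, and 10 of the 12 were lower in DESeq2 and none in edgeR. Foxj1, the regulator of motile cilia, was among the ependymal markers, at 50.1, 37.8 and 32.2 CPM against 84.98, 64.8 and 61.5 CPM in WT. Ttr, the main choroid plexus transcript, was not at 0 in any library, with 13.02, 114 and 13.6 CPM in the KO-labelled libraries. In WT it had 15337, 10670 and 3133 CPM. Slc4a5, another choroid plexus marker, was at the floor of 3 counts in KO 1. It had 0.177, 0.749 and 0.352 CPM in the KO-labelled libraries, against 113, 105 and 27.2 CPM in WT. Of the other 11 marker lists, that of microglia did not overlap, at 464, 515 and 422 CPM against 328, 406 and 382 CPM in WT. Neuronal lists overlapped but varied widely within groups. Striatal projection neuron markers summed to 3102, 4084 and 3956 CPM in KO 1 to KO 3, against 467, 6659 and 1941 CPM in WT 1 to WT 3. Cortical and septal excitatory neuron markers summed to 1112, 207 and 45.2 CPM, against 130, 66.7 and 582 CPM in WT. The part that these lists have in any value below was not tested, and in bulk RNA fewer cells of a type and less RNA per cell cannot be told apart.

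All 10 polarity genes passed the filter on low counts. None passed an adjusted p of 0.05 in edgeR, where 0% of the 15126 genes tested did, and none passed in limma-voom or in DESeq2, where 2.06% of all genes did (2.02% lower and 0.0397% higher). None reached an unadjusted p of 0.05 in edgeR, against 9.07% of all genes. In 2 of the 10, Celsr1 and Vangl1, all KO-labelled libraries lay below all WT libraries, which held for 8.74% of all genes. No member had all KO-labelled libraries above WT, which held for 8% of all genes. The median log2 fold change was 0.011 over the 10 and 0.018 over all genes. With 3 libraries a group, the exact two-sided permutation test cannot give a p below 0.1.

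**Figure D1:**
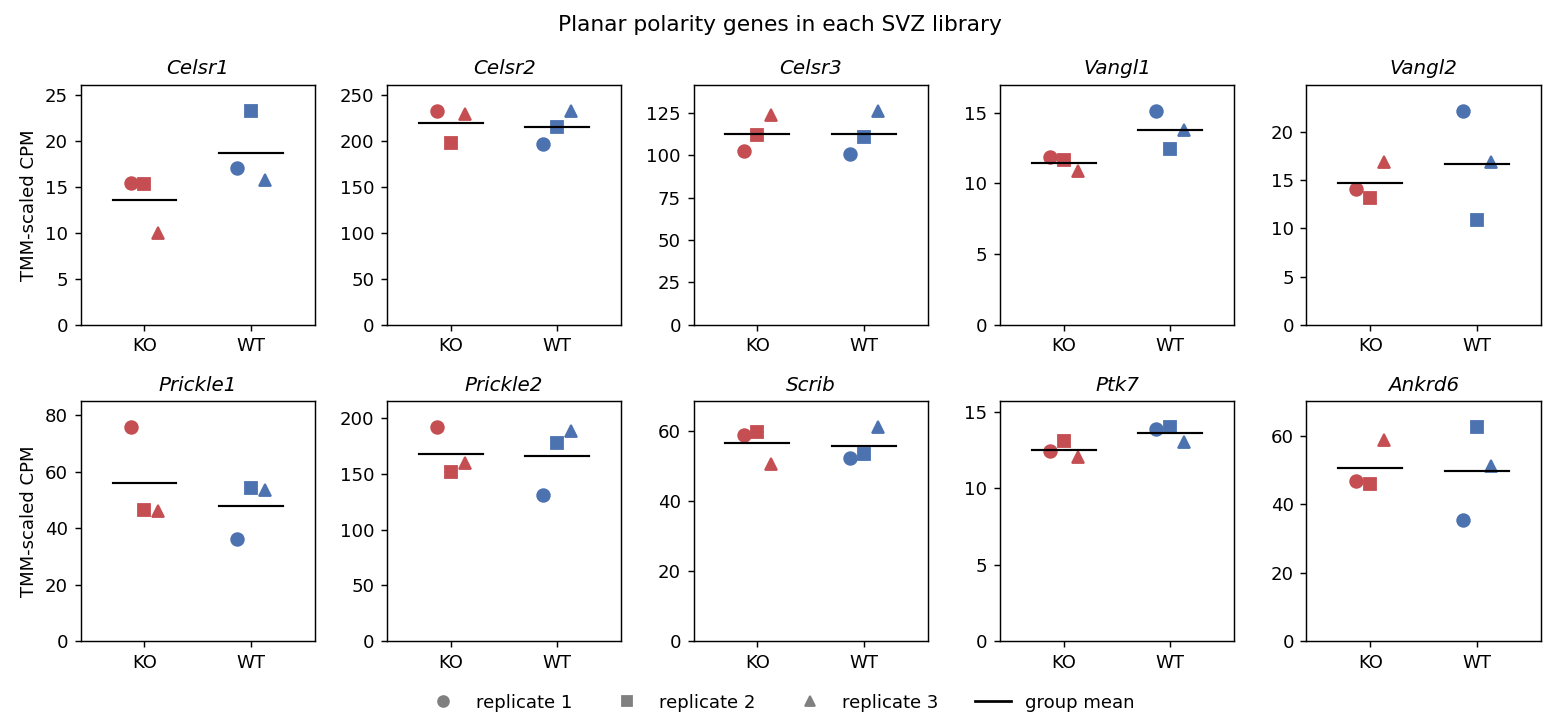
Level of each of the 10 genes in CPM (linear axes from 0, one panel per gene) in the 3 KO-labelled libraries (left) and the 3 WT libraries (right), 1 point per library; bars mark group means. The groups do not overlap in Celsr1, with KO-labelled libraries between 9.98 and 15.4 CPM and WT between 15.8 and 23.3 CPM, and in Vangl1; in the other 8 they overlap.

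Per unit of transcript length, the authors' FPKM (fragments scaled by transcript length and library size) summed over a gene's transcripts put Celsr2 highest and Celsr1 lowest. Over all 6 libraries the mean was 26.7 ± 2.17 FPKM for Celsr2 and 21.1 ± 2.60 FPKM for Prickle2 (SD, n = 6). Their ranges, 24.6 to 29.4 and 17.4 to 23.98 FPKM, did not overlap. Prickle1 (12.4 ± 2.99 FPKM), Scrib (11.1 ± 0.898), Ankrd6 (10.96 ± 1.98) and Celsr3 (9.29 ± 0.840) formed a middle group whose neighbours overlapped in range. The highest Prickle1 value, 17.74 FPKM in KO 1, passed the lowest of Prickle2, 17.42 FPKM in WT 1, so no gap lay above this group. A lower group held Ptk7 (3.17 ± 0.213 FPKM), Vangl2 (2.91 ± 0.897), Vangl1 (2.39 ± 0.357) and Celsr1 (1.89 ± 0.409), again with overlapping neighbours. A gap lay between the 2 groups, since the lowest value of the middle group was 8.11 FPKM, in Ankrd6, and the highest of the lower group 4.45 FPKM, in Vangl2.

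**Figure D2:**
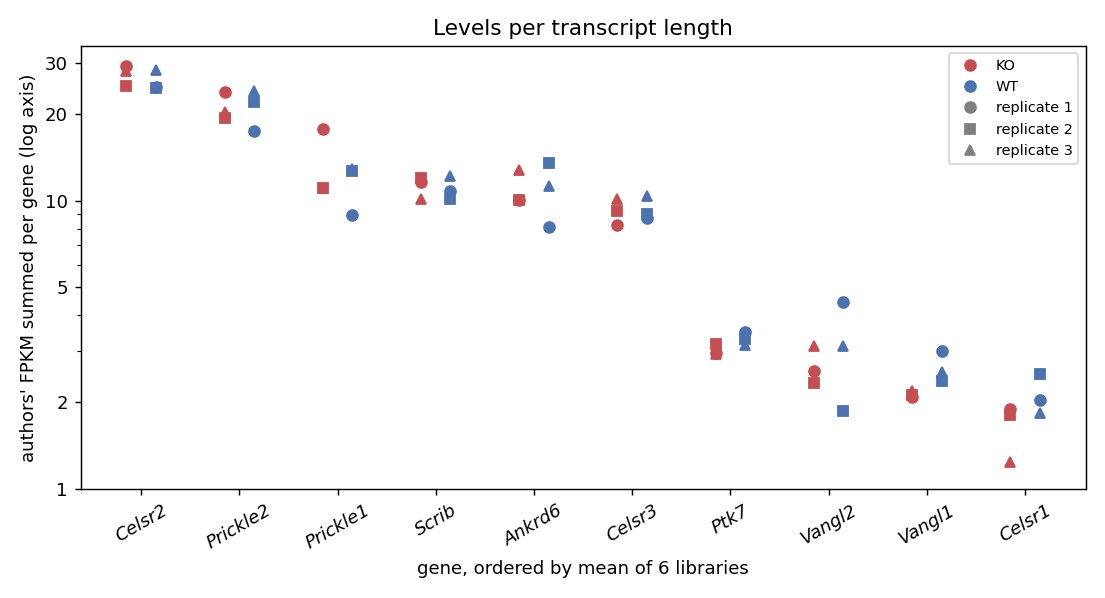
Level per length of the 10 genes, as the authors' FPKM summed over a gene's transcripts (log axis), 1 point per library, with KO-labelled and WT libraries in different colours. Celsr2, between 24.6 and 29.4 FPKM, lies above all other members, and the 4 lowest genes lie at or below 4.45 FPKM.

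The 3 Celsr genes encode very large cadherins with 7-pass membrane domains that bind their own kind on the next cell. On mm10 they lie on chromosome 15 from 85898758 to 86034223, minus strand (Celsr1, NCBI gene 12614), chromosome 3 from 108390848 to 108416069, minus strand (Celsr2, 53883) and chromosome 9 from 108826023 to 108852969, plus strand (Celsr3, 107934). Celsr1, known for its role in progenitors and epithelia, had 15.4, 15.4 and 9.98 CPM in KO 1 to KO 3, against 17.1, 23.3 and 15.8 CPM in WT 1 to WT 3. KO 3 was the lowest library and WT 2 the highest, and KO 1 and KO 2 lay just under WT 3. The log2 fold change was -0.46 ± 0.23 (SE), with an adjusted p of 0.603 in edgeR and an exact permutation p of 0.1. It was -0.283 without KO 3 and -0.285 without WT 2. Among WT libraries, WT 3 was lowest in Celsr1 and in the choroid plexus and ependymal sums. WT 1 had the highest of both sums (17132 and 292 CPM) and WT 2 the highest Celsr1. Among KO-labelled libraries, KO 3 was lowest in Celsr1 and in the ependymal sum, and KO 1 in the choroid plexus sum. The part of these sums in the Celsr1 values was not tested.

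Celsr2, which is broadly expressed and acts in ependymal ciliogenesis and in neurons, had 233, 198 and 229 CPM in the KO-labelled libraries, against 197, 215 and 233 CPM in WT. Its groups overlapped across the whole range, and the log2 fold change was 0.03 ± 0.12 (edgeR adjusted p = 0.955). Celsr3, best known for axon guidance, had 103, 112 and 124 CPM in the KO-labelled libraries and 101, 110 and 126 CPM in WT. Its log2 fold change was 0.0029 ± 0.13 (edgeR adjusted p = 0.995). Per length, the levels of the 3 paralogs lay farther apart (26.7, 9.29 and 1.89 FPKM for Celsr2, Celsr3 and Celsr1) than the groups did in any of them.

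The genes whose log2 CPM had the highest Pearson correlation with each Celsr gene are given as a description. They were taken over the 6 libraries among 14524 genes with a mean of at least 1 CPM. For Celsr1 they were Fastkd3 (Pearson r = 0.996), Tmem161a (0.985) and Ifi30 (0.980). For Celsr2 they were 9330159F19Rik (0.997), Col24a1 (0.989) and Gria3 (0.980), and for Celsr3 Ica1l (0.975), Slc39a8 (0.960) and Hectd4 (0.959). All these coefficients come from the same 6 libraries and were picked as the highest among 14524 genes. They ignore the size of a difference: Fastkd3 lay between 9.28 and 10.08 CPM in all 6 libraries, while Celsr1 ran from 9.98 to 23.3 CPM. Among the members themselves, Prickle1 and Prickle2 had the highest coefficient (0.901) and Vangl2 and Ankrd6 the lowest (-0.676).

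Vangl1 and Vangl2 encode 4-pass membrane proteins that recruit Prickle to one side of the cell. Vangl1 (NCBI gene 229658, chromosome 3, 102153583 to 102204744, minus strand) had 11.9, 11.6 and 10.9 CPM in the KO-labelled libraries, against 15.2, 12.4 and 13.8 CPM in WT. All 3 KO-labelled libraries were lower than the lowest WT library, by a small margin. The log2 fold change was -0.27 ± 0.13 (SE), the edgeR adjusted p was 0.597 and the exact permutation p was 0.1. Vangl2 (NCBI gene 93840, chromosome 1, 172000960 to 172027318, minus strand), the gene mutated in the looptail mouse, had 14.1, 13.2 and 16.9 CPM, against 22.2, 10.9 and 16.9 CPM in WT. WT 1 was its highest and WT 2 its lowest library, so that WT spanned the KO-labelled values, and the log2 fold change was -0.18 ± 0.26 (edgeR adjusted p = 0.861). A single transcript, NM_033509.4, held a mean of 96.2% of the Vangl2 count. Vangl1 was split between XM_006501395.3, with 53.9% of its count on average, and NM_177545.5, with 44.99%.

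Prickle1 and Prickle2 encode cytoplasmic proteins with PET and LIM domains that bind Vangl. Prickle1 (106042, chromosome 15, 93499111 to 93596266, minus strand) had 75.7, 46.3 and 46.2 CPM in the KO-labelled libraries, against 36.0, 54.0 and 53.5 CPM in WT. KO 1 was the highest library and WT 1 the lowest, and the other 4 lay together with KO 2 and KO 3 under WT 2 and WT 3. The log2 fold change was 0.23 ± 0.25 (edgeR adjusted p = 0.813), and without KO 1 it was -0.05. Prickle2 (243548, chromosome 6, 92370891 to 92706334, minus strand), which is abundant in neurons, had 192, 151 and 160 CPM, against 131, 178 and 188 CPM in WT. It repeated the order of Prickle1 at the extremes, with KO 1 highest and WT 1 lowest, and had a log2 fold change of 0.02 ± 0.17 (edgeR adjusted p = 0.984).

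**Figure D3:**
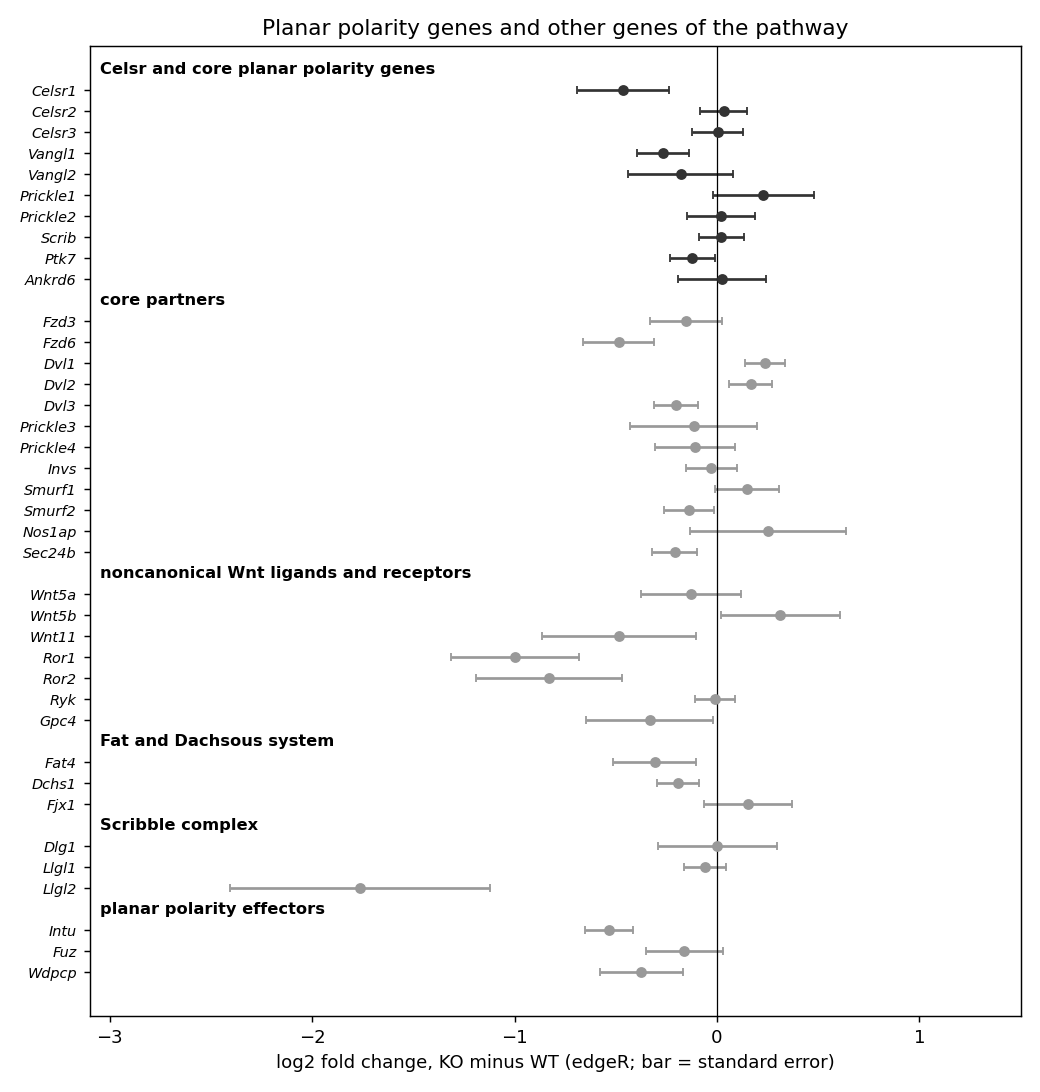
Log2 fold change, KO-labelled minus WT, from edgeR, of the 10 genes (dark, at the top) and of other pathway genes grouped by role (grey), with bars of 1 SE and a line at equal levels. The 10 run from -0.46 for Celsr1 to 0.23 for Prickle1, the lowest of the others is Llgl2 at -1.76, whose groups overlap, and none passed an adjusted p of 0.05.

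Prickle2 has several annotated starts, and most of its estimated count was assigned to the transcript of one of them. NM_001134461.1 held 80.3%, 74.1% and 68.6% of the Prickle2 count in KO 1 to KO 3, against 78.4%, 59.96% and 72.04% in WT 1 to WT 3. NM_001081146.2 was matched to the promoter farthest upstream of those in RefSeq's promoter table for Prickle2. It held 0%, 6.90% and 12.9%, against 0.671%, 4.61% and 0% in WT. The gene itself reaches farther upstream, to 92706334. The transcript with the largest share was therefore the same in all 6 libraries, while NM_001081146.2 had no estimated count in KO 1 and WT 3. Below, the starts of these transcripts are called dominant and upstream. Use of the starts themselves was not measured, since the shares are the quantifier's splits of reads that transcripts of a gene share. The 2 promoters and one of Celsr2 are shown because their CpG content differs. Each runs from 250 bases before to 50 after the start on the minus strand of GRCm38.p6, from RefSeq's promoter table, 5′ to 3′, with every CG in capitals. The lines give NM_001134461.1 of Prickle2 at chr6:92567317-92567616, NM_001081146.2 of Prickle2 at chr6:92706135-92706434, whose table start is 29 bases from the transcript's, and Celsr2 at chr3:108415530-108415829. The Celsr2 start in the table is 27 bases from that of NM_001004177.2, which held a mean of 0.615% of the Celsr2 count.
Prickle2 dominant start: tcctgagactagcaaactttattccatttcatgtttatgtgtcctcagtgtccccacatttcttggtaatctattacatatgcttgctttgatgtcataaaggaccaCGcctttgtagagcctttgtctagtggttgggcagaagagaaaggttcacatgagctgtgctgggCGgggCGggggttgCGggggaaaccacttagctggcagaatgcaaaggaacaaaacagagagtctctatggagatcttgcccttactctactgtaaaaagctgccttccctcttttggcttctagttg
Prickle2 upstream start: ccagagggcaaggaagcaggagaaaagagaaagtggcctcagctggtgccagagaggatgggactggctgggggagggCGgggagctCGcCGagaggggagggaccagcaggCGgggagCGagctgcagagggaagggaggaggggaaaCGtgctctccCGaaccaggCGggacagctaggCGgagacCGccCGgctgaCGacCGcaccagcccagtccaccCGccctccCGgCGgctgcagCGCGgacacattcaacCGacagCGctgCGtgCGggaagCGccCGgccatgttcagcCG
Celsr2 start: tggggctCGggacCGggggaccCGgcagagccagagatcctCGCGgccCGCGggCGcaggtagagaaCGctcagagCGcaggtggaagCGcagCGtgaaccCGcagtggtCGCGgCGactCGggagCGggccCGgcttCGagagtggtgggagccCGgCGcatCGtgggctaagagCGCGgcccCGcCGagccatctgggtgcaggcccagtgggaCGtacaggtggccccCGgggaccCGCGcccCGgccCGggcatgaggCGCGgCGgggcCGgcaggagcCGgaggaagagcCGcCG
The dominant Prickle2 start has 4 CG dinucleotides, a number that 68.6% of the 32851 promoters in the table reach or pass. The upstream start has 25 (18.4% of promoters) and Celsr2 has 40 (3.91%), against a median of 7 over all promoters. The 4 and the 40 are the fewest and the most among the 13 promoters of members. Prickle2 starts not shown have 7 (NM_001134460.2) and 5 (NM_001134459.1). The starts matched to NM_001033217.4 of Prickle1 and NM_001012451.1 of Ankrd6 have 39 and 36. CG reads the same on both strands, and matches cannot overlap each other. The table had promoters for 7 of the 10 genes, 13 in all; those of Celsr1, Vangl1 and Scrib were not analysed here.

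Scrib, Ptk7 and Ankrd6 act around the core. Scrib (105782, chromosome 15, 76047162 to 76069784, minus strand), a scaffold of the basolateral membrane that binds Vangl2, had 59.0, 59.8 and 50.7 CPM in the KO-labelled libraries, against 52.2, 53.5 and 61.1 CPM in WT. Ptk7 (71461, chromosome 17, 46564451 to 46630049, minus strand), a pseudokinase receptor in Wnt and polarity signalling, had 12.4, 13.1 and 12.04 CPM, against 13.9, 13.98 and 12.99 CPM in WT. Ankrd6 (140577, chromosome 4, 32804027 to 32950885, minus strand), the homolog of Drosophila diego, had 47.0, 45.9 and 58.7 CPM, against 35.5, 62.5 and 51.2 CPM in WT. The groups overlapped in each of these genes, in Ptk7 only because KO 2 passed WT 3 slightly. Their log2 fold changes were 0.02 ± 0.11 for Scrib (edgeR adjusted p = 0.971), -0.12 ± 0.11 for Ptk7 (0.777) and 0.02 ± 0.22 for Ankrd6 (0.984).

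Of the 51 transcripts of the 10 genes, 35 passed the filter and 16 did not, having at most 47.2 counts in any library. Among the 35, none passed an adjusted p of 0.05 in edgeR, where 0% of 38616 transcripts did, and 1 was lower at an unadjusted p under 0.05, against 2.91% of all transcripts lower, 2.08% higher and 4.99% in all. DESeq2 called 1, NM_017392.3 of Celsr2, as lower, against 1.46% of all transcripts lower, 0.808% higher and 2.27% in all; limma-voom called none. In 4 of the 35 every KO-labelled library lay below every WT library, against 7.67% of all transcripts, and in none was it the reverse, against 6.77%. The 4 were NM_009886.2 of Celsr1, NM_017392.3 of Celsr2, XM_006511625.2 of Celsr3 and NM_175168.4 of Ptk7. These are the quantifier's splits of reads that transcripts of a gene share, and the error of the split is not in the files.

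NM_017392.3, at 10645 bases among the longest Celsr2 transcripts, had 345, 66.5 and 323 counts in KO 1 to KO 3, against 979, 1186 and 1069 counts in WT 1 to WT 3. All KO-labelled libraries lay far below WT, and KO 2 stood well below the other two. Its log2 fold change was -2.11 ± 0.63 (SE), with an adjusted p of 0.736 in edgeR and 0.0413 in DESeq2. The DESeq2 call held without WT 1, KO 1 or KO 2 (adjusted p between 8.22e-12 and 0.0364) and was lost without WT 2, WT 3 or KO 3. The main Celsr2 transcript, XM_006501692.2 of 7362 bases, had 3338, 2549 and 2729 counts, against 2302, 1950 and 2623 counts in WT. The gene total overlapped between the groups while the split did not: NM_017392.3 held 6.31 ± 3.80% of the Celsr2 count in the KO-labelled libraries, against 28.8 ± 3.67% in WT (SD, n = 3 each).

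A second long Celsr2 transcript, XM_006501691.3 of 10504 bases, had 243, 828 and 772 counts in the KO-labelled libraries, against 363, 403 and 255 counts in WT, higher than WT in KO 2 and KO 3 and lower in KO 1. Summed over the 4 Celsr2 transcripts longer than 10 kb, the share of the gene's count was 15.7%, 26.0% and 30.1% in KO 1 to KO 3, against 36.8%, 45.6% and 34.8% in WT 1 to WT 3. The groups still did not overlap in this sum.

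In Celsr1, NM_009886.2 of 11178 bases had 19.2, 71.7 and 37.6 counts in the KO-labelled libraries, against 105, 160 and 103 counts in WT. Its log2 fold change was -1.50 ± 0.61 (edgeR unadjusted p = 0.052), and it did not pass after adjustment. XM_006520382.3 of 7463 bases, the main Celsr1 transcript, had 219, 165 and 132 counts, against 176, 179 and 162 counts in WT, with a log2 fold change of 0.02. The groups did not overlap in the long transcript, whereas in the main one KO 1 was the highest library and KO 3 the lowest. The 2 transcripts over 10 kb together held 16.5%, 38.1% and 22.1% of the Celsr1 count, against 44.3%, 53.95% and 37.8% in WT, and here KO 2 lay just above WT 3. This sum leaves out XM_006520381.1, of unknown length, which held 2.62% in WT 3 and 0% in the other libraries; with it WT 3 lies above KO 2 and the groups do not overlap.

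Ptk7 had 2 transcripts of similar length. NM_175168.4 of 4280 bases had 18.7, 74.7 and 37.3 counts in the KO-labelled libraries, against 93.3 in each WT library. Within a tolerance of 0.01 these are 1, 4 and 2 against 5, 5 and 5 times the lowest value, so the estimates rest on few distinct steps. XM_006524924.2 of 4052 bases had 192, 152 and 168 counts, against 163, 140 and 131 counts in WT. In Celsr3, where XR_001778787.1 held 62.7%, 59.8% and 66.7% of the count, against 61.7%, 52.6% and 76.6% in WT, the groups overlapped. In Scrib, XM_006520242.2, at 4687 bases the shortest tested Scrib transcript, held 63.8%, 56.2% and 57.7%, against 47.7%, 39.0% and 49.1% in WT, higher in every KO-labelled library. The share of NM_001310543.1 of Scrib, at 5505 bases, overlapped. Minor transcripts with a lower share in every KO-labelled library were XM_011249923.2 of Ankrd6, XM_006511625.2 of Celsr3 and XM_006506106.3 of Prickle2. How often the shares of such transcripts do not overlap over all genes was not taken.

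**Figure D4:**
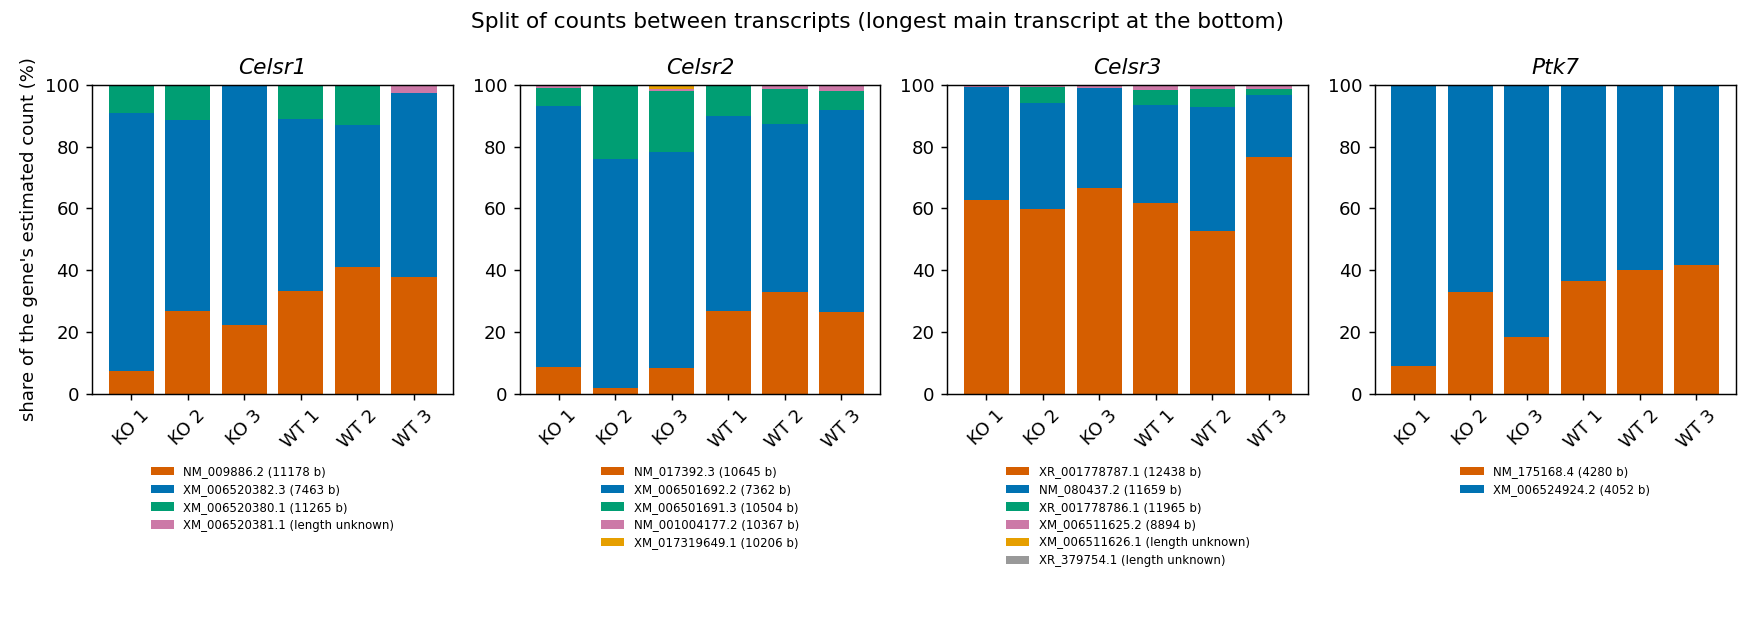
Stacked bars of the share of the gene's estimated count (percent, axis from 0) held by each transcript of Celsr1, Celsr2, Celsr3 and Ptk7, 1 bar per library, with KO 1 to KO 3 left of WT 1 to WT 3 and transcript lengths in the legends. The bottom segment, NM_017392.3 in Celsr2, averages 6.31% in KO-labelled libraries and 28.8% in WT.

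The share held by the longest transcript among those with 10% or more of a gene's count was then taken over all 6821 genes with at least 100 counts on average and at least 2 such transcripts, a comparison chosen after the values above had been seen. Of the 8 members that qualified, 3 (Celsr1, Celsr2 and Ptk7) had a lower share in every KO-labelled library than in any WT library, against 11% of all these genes. None was higher in every one, against 4.85% of all genes. The differences were -18.6, -22.5 and -19.4 percentage points for Celsr1, Celsr2 and Ptk7, and the median over the 8 members was -6.32 points, against -1.74 points over all genes. A difference as negative was found in 4.28% of all genes for Celsr2, 6.61% for Celsr1 and 6.01% for Ptk7.

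Fold changes also moved with transcript length across the whole table. The median log2 fold change was 0.08 over the 8028 tested transcripts under 2 kb and -0.20 over the 1563 above 10 kb. In the shortest class 5.46% of transcripts had all KO-labelled libraries below WT and 10.6% all above; in the longest, 10.9% were below and 3.20% above. The long Celsr transcripts lay on both sides of that class's median, with NM_017392.3 at -2.11 and XM_006501691.3 at 0.87 on the log2 scale. The part of transcript length or RNA quality in the Celsr values was not tested.

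**Figure D5:**
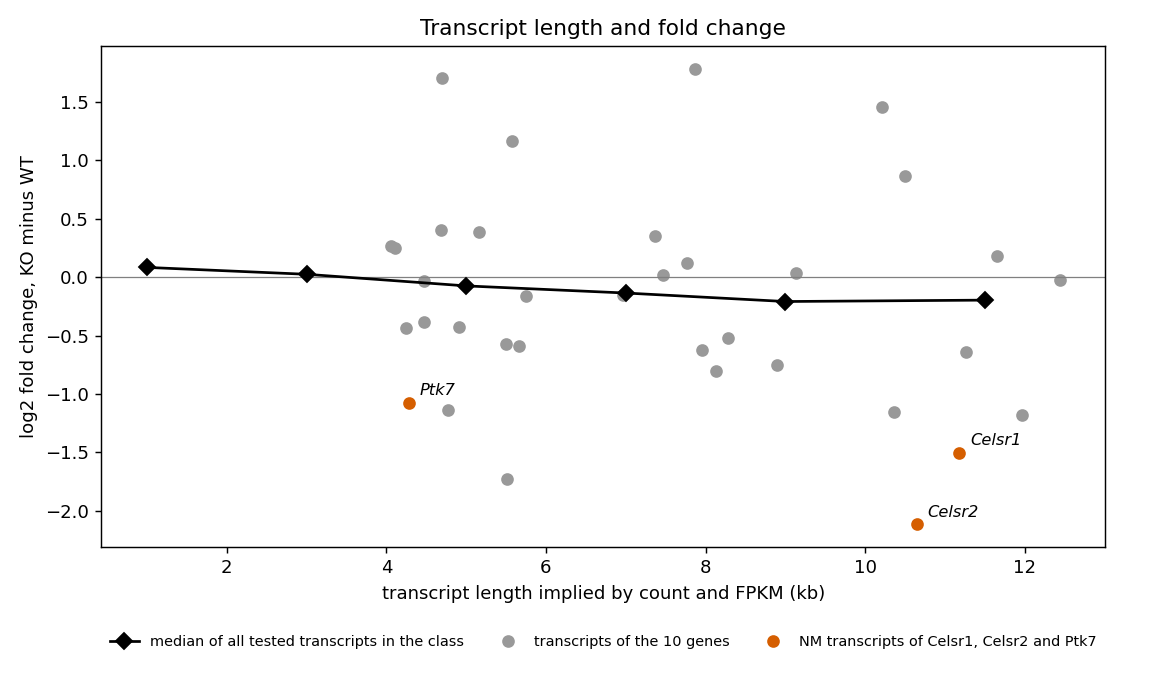
Log2 fold change, KO-labelled minus WT, against transcript length in kb, for the tested transcripts of the 10 genes (circles; those of unknown length left out) and as the median of all tested transcripts per length class (diamonds). The class medians run from 0.08 under 2 kb to -0.20 above 10 kb, and NM_017392.3 of Celsr2 lies at -2.11.

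Of 39 other genes of the pathway, listed by role, 38 had a row and all 38 were tested. None passed an adjusted p of 0.05 in edgeR or DESeq2. At an unadjusted p of 0.05 in edgeR, 5 of the 38 were lower and 1 was higher in the KO-labelled libraries, against 6.39% and 2.68% of all genes. The median log2 fold change was -0.11 over the 38, against 0.018 over all genes, and 26 of the 38 were negative.

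Among 12 core partners, receptors and Dishevelled adaptors included, 1 was lower and 1 higher at the unadjusted level. Fzd6, a Frizzled receptor of the core, had 9.37, 8.93 and 10.45 CPM in the KO-labelled libraries, against 12.8, 16.3 and 11.1 CPM in WT, with a log2 fold change of -0.48 ± 0.18 (edgeR adjusted p = 0.494). Dvl1, a Dishevelled adaptor, had 99.9, 95.1 and 95.1 CPM, against 82.6, 75.2 and 88.2 CPM in WT, with a log2 fold change of 0.24 ± 0.10 (edgeR adjusted p = 0.542). The receptor and the adaptor therefore lay on opposite sides of 0, each without overlap between groups. Dvl3, another Dishevelled adaptor, had a log2 fold change of -0.20.

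Of 7 noncanonical Wnt ligands and receptors, 6 had a negative fold change and 1, Ror1, an unadjusted p under 0.05. Ror1, a receptor for Wnt5a, had 1.53, 2.71 and 2.94 CPM in the KO-labelled libraries, against 4.76, 5.82 and 3.77 CPM in WT, a log2 fold change of -0.998 ± 0.31 (edgeR adjusted p = 0.416). Its relative Ror2 had a log2 fold change of -0.83 and the ligand Wnt11 one of -0.49. The 3 Fat and Dachsous genes, the second polarity system, had log2 fold changes of -0.31 (Fat4), -0.19 (Dchs1) and 0.15 (Fjx1), none with an unadjusted p under 0.05. In the Scribble group, Llgl2, a partner of Scrib in epithelial polarity and the 1 of 3 genes with an unadjusted p under 0.05, had 1.59, 2.30 and 0.470 CPM in the KO-labelled libraries, against 7.25, 5.46 and 2.15 CPM in WT. It rested on 8 to 134 counts per library, and its groups overlapped, with KO 2 above WT 3. It had a log2 fold change of -1.76 ± 0.64 (edgeR adjusted p = 0.496), beside -0.06 for Llgl1 and 0.0020 for Dlg1.

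The effectors that place cilia downstream of polarity had the lowest median of the lists, -0.37 over 3 genes, all negative. Intu, needed for ciliogenesis, had 23.3, 20.2 and 18.5 CPM in the KO-labelled libraries, against 31.3, 30.3 and 28.0 CPM in WT. The groups were well apart, with a log2 fold change of -0.53 ± 0.12, an adjusted p of 0.250 in edgeR and 0.0503 in DESeq2. Wdpcp and Fuz, the other two effectors, had log2 fold changes of -0.37 and -0.16. Ependymal markers summed to 137, 127 and 98.6 CPM in the same KO-labelled libraries, against 292, 214 and 204 CPM in WT, and their part in the effector values was not tested.

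Daam1, a formin that binds Dishevelled, had 79.5, 56.9 and 80.1 CPM in the KO-labelled libraries, against 93.2, 90.8 and 93.9 CPM in WT, a log2 fold change of -0.36 ± 0.15 (edgeR adjusted p = 0.537) that was -0.21 without KO 2. Rock1, a kinase of the ROCK axis that the study's title names, had 36.1, 25.6 and 32.4 CPM, against 35.8, 37.3 and 33.8 CPM in WT, and a log2 fold change of -0.18 ± 0.14 (edgeR adjusted p = 0.738). Rock2, its paralog, had 183, 131 and 183 CPM, against 111, 179 and 161 CPM in WT. KO 2 was the lowest library for both Daam1 and Rock1, whereas for Rock2 it was WT 1. The log2 fold change of Rock2 was 0.14 ± 0.22 (edgeR adjusted p = 0.867).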

How the data were processed

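The deposited table holds, per the file headers, an estimated count and an FPKM for each RefSeq transcript in 6 bulk SVZ libraries; the authors scaled FPKM by length and library total. The build was mm10 and limma 3.40.6 was named, per the submitters' processing notes. The quantifier is not given in the sources used here. For each NCBI gene the estimated counts were added and rounded. edgeR 4.0.16 (TMM, filterByExpr minimum count 10, quasi-likelihood F test, two-sided) was fitted over 15126 genes, and over 38616 transcripts, with Benjamini-Hochberg adjustment. DESeq2 1.42.0, limma-voom 3.58.1, a replicate block and leaving out each library were alternatives. The script was tested on simulated data, with changes larger than any that the 10 genes or their transcripts had in the main fit. Recovery of smaller changes was not tested. Transcript length came from count and FPKM. Symbols came from RefSeq's table of GRCm38.p6. Groups and replicate numbers came from sample titles. The labels do not tie libraries to separate animals, so the spread behind the p-values may not be a spread between animals. Replicates differed beyond sampling noise (chi-square per degree of freedom 22.6 to 99.5). Members and lists were chosen with earlier results of these data known. Named genes are all members, up to 3 per pathway list by smallest p, Rock1, Rock2, and the 3 genes nearest to each Celsr gene. One pathway list and a gene of it are counted among the 38 but not reported here.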

Additional observations from a re-analysis of the deposited data

How the results depend on the processing

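Under the 12 alternatives, 0 of the 10 members and 0 of the 38 other pathway genes passed the threshold. Over all genes the count was 0 in edgeR and limma-voom with every library, 311 in DESeq2 and 0 to 137 with 1 library left out (137 without WT 3). DESeq2 called 1 member transcript; the other alternatives called 0. The median log2 fold change of the members, 0.011, was between -0.089 and 0.069 with 1 library left out and -0.11 with KO 1 alone against WT. Leaving out 1 library turned the sign of Celsr2 (-0.026 to 0.10), Celsr3 (-0.070 to 0.094), Vangl2 (-0.42 to 0.085), Prickle1 (-0.048 to 0.35), Prickle2 (-0.12 to 0.12), Scrib (-0.021 to 0.096) and Ankrd6 (-0.17 to 0.21). Celsr3 was also negative with DESeq2's size factors (-0.0051), in DESeq2 (-0.0050) and with KO 1 alone (-0.13), and Ankrd6 with KO 1 alone (-0.081); the cause was not tested. Celsr1 (-0.57 to -0.28), Vangl1 (-0.35 to -0.19) and Ptk7 (-0.15 to -0.09) kept their sign under all 12. NM_017392.3 ran from -2.46 to -1.60 over 18 alternatives, of which DESeq2 without each library was added after seeing the data. Among the added fits, NM_009886.2 and NM_175168.4 passed only without KO 2 (DESeq2 adjusted p 0.0298 and 0.0399). KO 2 was the KO-labelled library nearest to WT in both, and the estimates of NM_175168.4 rest on few distinct steps. The share of all transcripts called in the added fits was not taken. Same-numbered libraries deviated with correlations of -0.16, -0.067 and -0.037, and differently numbered ones with -0.15 to 0.18. No pairing by number was seen, but deviations from means of 3 libraries cannot exclude one. With a replicate block the member median was 0.014, Celsr1 was at -0.47 and 0 members passed. KO 1, the library whose genotype tag names ZHX2, cannot give a spread of its own.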
